A study of Mus musculus with 6 samples.

Results

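The SOCS, CISH, PIAS and LNK genes encode the built-in brakes of cytokine signalling, and 10 of them (Socs1 to Socs6, Cish, Pias1, Pias3 and Sh2b3) were followed in mouse haematopoietic progenitors that were sorted after induction of EVI1. They were taken by gene symbol from the 18192 genes measured, and 28 of the 45037 probe sets were annotated to exactly 1 of them. Each gene is given by its lead probe set, the one with the highest mean over the 6 arrays. All 10 genes had one, and none of their arrays lay under the highest bacterial control probe set (3.61 on the log2 scale), so no filter removed a gene.

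Lineage-negative progenitors of C57BL/6J background carried rtTA, the transactivator that doxycycline switches on, at Rosa26, and both groups share it. The 3 EGFP-positive samples were transduced with pRRL.TET.EVI1.IRES.EGFP, a doxycycline-inducible lentiviral vector that expresses EVI1 and EGFP, and were sorted for high EGFP. The 3 EGFP-negative samples are labelled as untransduced, whereas the design text has them sorted for negative or low EGFP after transduction and induction, and GEO's description of the EGFP-positive samples says untransduced too. The groups are those of the sample titles. The medium, S3F11, held 20 ng/ml of interleukin-3 and 50 ng/ml each of stem cell factor, interleukin-11 and the ligand of FLT3. Induction with 1 µg/ml of doxycycline began on the day after transduction, and the sort followed 20 hours later. The labels give neither the age of the mice nor whether replicates came from separate animals or cultures, so p-values reflect only how these samples scatter, which could be technical scatter. In sorted bulk cells, fewer cells of a type and less RNA per cell cannot be told apart.

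Interleukin-3 signals through JAK2 and STAT5, and interleukin-11 through gp130, Janus kinases and STAT3. The STATs then switch on CISH and several SOCS genes, whose SH2 domains bind activated receptors or kinases and whose SOCS box recruits an elongin and cullin ubiquitin ligase, so the signal ends itself. PIAS proteins are SUMO ligases that bind STATs in the nucleus, and LNK, encoded by Sh2b3, is an adaptor that restrains JAK2 and KIT in blood progenitors.

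Of the 10 genes, 3 were lower in EGFP-positive cells (Socs3, Socs1 and Socs6), 3 were higher (Socs5, Pias3 and Sh2b3) and 4 did not pass the test (Socs2, Socs4, Cish and Pias1). Socs3 and Socs5 alone changed at least 2-fold, in opposite directions. The test was limma over all genes with Benjamini-Hochberg adjustment and a threshold of 0.05, which called 33.2% of all genes, 16.0% as higher and 17.2% as lower, and 12.2% at 2-fold or more. The median difference of the 10 genes, EGFP-positive minus EGFP-negative, was -0.050 on the log2 scale, against 0.023 over all genes tested. Values of EGFP-positive and EGFP-negative arrays did not overlap for 9 of the 10 genes, and for 48.2% of all genes. For those 9 the exact two-sided permutation test gave p = 0.1, the smallest that 3 against 3 arrays allow, and for Socs4 it gave p = 1.

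**Figure D1:**
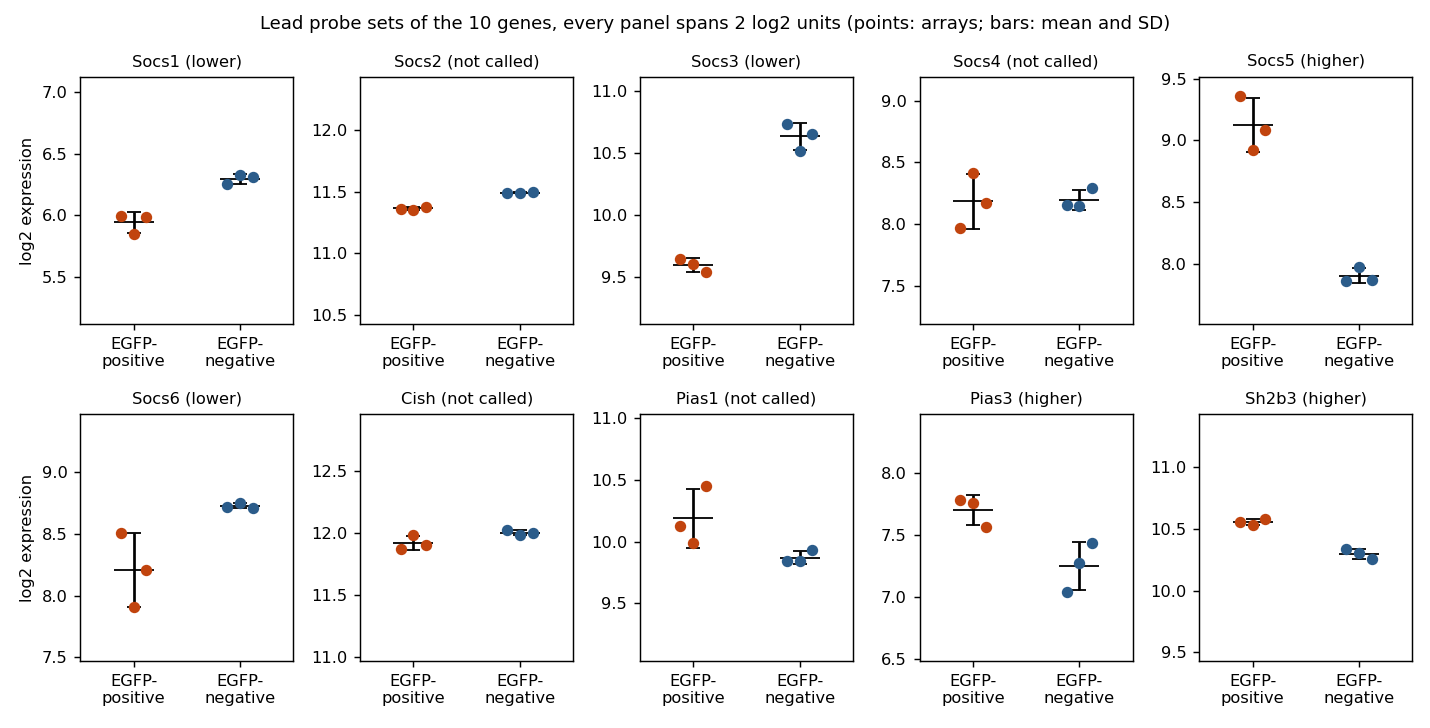
Log2 expression of the lead probe set of each gene, with EGFP-positive arrays on the left and EGFP-negative arrays on the right of each panel (points, 1 array each; bars, mean and SD of 3 arrays). Every panel spans the same 2 log2 units, so the gaps can be compared: Socs3 and Socs5 stand out, and the groups lie close together for Socs2, Socs4 and Cish.

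Socs3, which blocks the Janus kinases bound to gp130 and to the G-CSF receptor, fell to about one level on all EGFP-positive arrays. Its lead probe set read 9.64, 9.60 and 9.54 in EGFP-positive arrays, against 10.74, 10.52 and 10.65 in EGFP-negative arrays. The gap between the groups was several times the spread within either. The means were 9.59 ± 0.055 in EGFP-positive and 10.64 ± 0.11 in EGFP-negative arrays (SD, n = 3 each), a difference of -1.04 (SE 0.091; limma adjusted p = 0.00038), or 2.06-fold lower. Over all genes, 1107 had a larger estimated fall.

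The other Socs3 probe sets moved the same way. 1456212_x_at differed by -1.02 and 1416576_at by -1.19, with adjusted p of 0.00063 and 0.011 in the fit over all probe sets. The lead probe set, 1455899_x_at, and 1456212_x_at carry a suffix that marks possible cross-hybridisation to similar transcripts, and 1416576_at does not. The dimmer 1416576_at also had the widest spread of the 3, with EGFP-positive replicate 2 lowest at 5.97 and EGFP-positive replicates 1 and 3 at 6.71 and 6.80, against 7.73, 7.72 and 7.59 in EGFP-negative arrays.

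The promoter of Socs3 is shown because it was 1 of 2 in which a STAT motif was found. RefSeq promoter windows (GRCm38.p6, 250 bases before to 50 after the gene's start) were on hand for 7 of the 10 genes, and TTCNNNGAA, the palindrome bound by most STATs, was searched on both strands. It matched in Socs3 and Cish and not in the windows of Socs1, Socs4, Pias1, Pias3 and Sh2b3. Over all genes with a window, 9.55% held a match. Neither the same palindrome with 1 more base between its arms, the spacing that STAT6 prefers (8.01% of genes), nor the GATA-type AGATAA (12.7%), also searched on both strands, matched in any of the 8 windows of the 7 genes. The first line gives the 250 bases before the start of Socs3, on the minus strand of chr11:117969367-117969616, with the match in capitals 154 bases before the start. The second gives 20 bases at the start of Cish, on the plus strand of chr9:107296659-107296678, where 2 matches lie 2 bases apart in capitals.
Socs3: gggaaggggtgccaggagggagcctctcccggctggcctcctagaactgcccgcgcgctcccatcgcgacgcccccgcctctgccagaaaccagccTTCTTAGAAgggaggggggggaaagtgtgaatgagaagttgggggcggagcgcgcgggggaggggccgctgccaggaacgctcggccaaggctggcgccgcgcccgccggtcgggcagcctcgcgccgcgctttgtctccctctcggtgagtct
Cish: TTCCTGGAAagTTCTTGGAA

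These matches are a description of letters and not of binding. The 2 genes that held them did not share a change, since Socs3 fell 2.06-fold and Cish did not pass the test.

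Cish, the founding member of the family and a classical STAT5 target, gave nearly the same signal in both fractions. Its only probe set read 11.870, 11.982 and 11.903 in EGFP-positive arrays, against 12.022, 11.986 and 12.005 in EGFP-negative arrays. Every EGFP-positive array lay below every EGFP-negative one, but the gap between the nearest arrays was small. The difference was -0.086 (limma adjusted p = 0.45), with a 95% interval of -0.27 to 0.099.

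Socs2, a brake on growth hormone receptor signalling that STAT5 also induces, showed the smallest spread of the 10 genes at its lead probe set. The lead probe set read 11.36, 11.35 and 11.38 in EGFP-positive arrays, against 11.49 on each of the 3 EGFP-negative arrays. The groups did not overlap, yet the difference of -0.13 did not pass (limma adjusted p = 0.23, 95% interval -0.30 to 0.046). The fit draws each gene's spread towards that of all genes. With that pull made to depend on the signal (eBayes with trend) the same difference passed (adjusted p = 0.026). The other 5 probe sets of Socs2 ran from -0.66 for 1441476_at to 0.29 for 1442586_at, and none of the 6 passed. Next in brightness to the lead, 1418507_s_at, was 1449109_at, with means of 9.29 in EGFP-positive and 9.27 in EGFP-negative arrays and overlapping groups. In 1441476_at, EGFP-positive replicate 3 stood apart at 5.21, with the other EGFP-positive arrays at 6.49 and 6.59.

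Socs1, which inhibits JAK activity after interferon and other cytokines, was modestly lower. Its only probe set read 5.99, 5.85 and 5.99 in EGFP-positive arrays, against 6.25, 6.33 and 6.31 in EGFP-negative arrays. The groups were apart by more than the spread of either. The difference was -0.35 (SE 0.083; limma adjusted p = 0.019), or 1.28-fold lower. The call was lost without EGFP-negative replicate 1 (adjusted p = 0.054), replicate 2 (0.075) or replicate 3 (0.061), and with eBayes trend (0.10).

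Socs5, linked to the restraint of EGF receptor and interleukin-4 signalling, was the member that rose most. It read 9.36, 8.92 and 9.08 in EGFP-positive arrays, against 7.86, 7.97 and 7.87 in EGFP-negative arrays. The lowest EGFP-positive array lay clearly above the highest EGFP-negative one. The means were 9.12 ± 0.22 in EGFP-positive and 7.90 ± 0.061 in EGFP-negative arrays (SD, n = 3 each), a difference of 1.22 (SE 0.13; limma adjusted p = 0.00078), or 2.33-fold higher. Over all genes, 846 had a larger estimated rise.

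The second Socs5 probe set, 1423349_at, gave a larger rise of 1.79 (3.47-fold; adjusted p = 0.0031 over probe sets). It read 8.46, 7.88 and 8.91 in EGFP-positive arrays, against 6.59, 6.64 and 6.64 in EGFP-negative arrays. EGFP-positive replicate 2 was the lowest EGFP-positive array at both probe sets. With the mean of the probe sets the gene differed by 1.51.

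Socs4, the closest relative of Socs5, did not pass the test. Its lead probe set read 7.97, 8.41 and 8.17 in EGFP-positive arrays, against 8.16, 8.14 and 8.29 in EGFP-negative arrays. The groups overlapped, and the difference of -0.013 had a 95% interval of -0.33 to 0.30 (limma adjusted p = 0.95). None of its 4 probe sets passed, and their differences ran from -0.16 to -0.013.

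Socs6, which binds KIT and limits its signal, was lower with an uneven spread. It read 8.51, 7.90 and 8.21 in EGFP-positive arrays, against 8.72, 8.75 and 8.71 in EGFP-negative arrays. All EGFP-positive arrays lay below the EGFP-negative ones, with replicate 1 close to them and replicate 2 far below. The difference was -0.52 (SE 0.16; limma adjusted p = 0.046), or 1.43-fold lower. The call was lost without EGFP-positive replicate 2 (adjusted p = 0.071) or 3 (0.097) and without EGFP-negative replicate 1 (0.12), 2 (0.12) or 3 (0.11), and with arrays shifted to the same median (0.054). It was also lost with the most variable probe set (adjusted p = 0.31), and in the fit over all probe sets the lead one did not pass (0.061). Its other probe sets differed by -0.55 (1450129_a_at, adjusted p = 0.034 over probe sets) and -0.42 (1452764_at, 0.33).

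Of the SUMO ligase genes, Pias3 rose by a small amount and Pias1 did not pass. Pias3, an inhibitor of STAT3, read 7.78, 7.76 and 7.57 in EGFP-positive arrays, against 7.04, 7.27 and 7.43 in EGFP-negative arrays. The groups did not overlap, but EGFP-negative replicate 3 lay near EGFP-positive replicate 3. The difference was 0.46 (SE 0.13; limma adjusted p = 0.037), or 1.37-fold. It did not pass without EGFP-positive replicate 1 (adjusted p = 0.096) or 2 (0.093), or without EGFP-negative replicate 1 (0.0996) or 2 (0.094). Nor did it pass with the most variable probe set, which for Pias3 is also the lead one (adjusted p = 0.055), or in the fit over all probe sets (0.053). Its second probe set, 1421646_a_at, differed by 0.34 (0.061 over probe sets).

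Pias1, a family member that also restrains cytokine responses, read 10.13, 9.99 and 10.45 in EGFP-positive arrays, against 9.84, 9.84 and 9.93 in EGFP-negative arrays. EGFP-positive values were higher on every array but scattered. The difference of 0.32 did not pass (limma adjusted p = 0.12, 95% interval -0.0056 to 0.64). All 4 of its probe sets were higher in EGFP-positive arrays, by 0.23 to 0.35, and with their mean the gene passed (0.29, adjusted p = 0.035), as it did with eBayes trend (0.044).

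Sh2b3 rose slightly and with little scatter at its lead probe set. It read 10.55, 10.53 and 10.58 in EGFP-positive arrays, against 10.33, 10.30 and 10.26 in EGFP-negative arrays. The groups were apart, with a difference of 0.26 (SE 0.074; limma adjusted p = 0.039), or 1.20-fold. The call was lost without any 1 array: the adjusted p was 0.079, 0.069 and 0.082 without EGFP-positive replicates 1, 2 and 3, and 0.094, 0.11 and 0.11 without EGFP-negative replicates 1, 2 and 3. It was also lost with the most variable probe set (adjusted p = 0.59) and with the mean (0.26) or the median (0.28) of the probe sets, and the lead probe set did not pass in the fit over all probe sets (0.078). The dimmer 1450183_a_at overlapped between groups and differed by 0.20 (adjusted p = 0.60 over probe sets).

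Across all 28 probe sets, 2 were higher (both of Socs5) and 5 were lower (3 of Socs3 and 1 each of Socs1 and Socs6), against 11.6% and 12.6% of all probe sets (24.1% in either direction). With the arrays quantile-normalized once more the split was 5 higher and 4 lower, and with the arrays shifted to the same median it was 5 and 5. No gene had probe sets past the threshold in opposite directions. Spread was wider among EGFP-positive than among EGFP-negative arrays for 7 of the 10 genes, and for 63.7% of all genes.

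**Figure D2:**
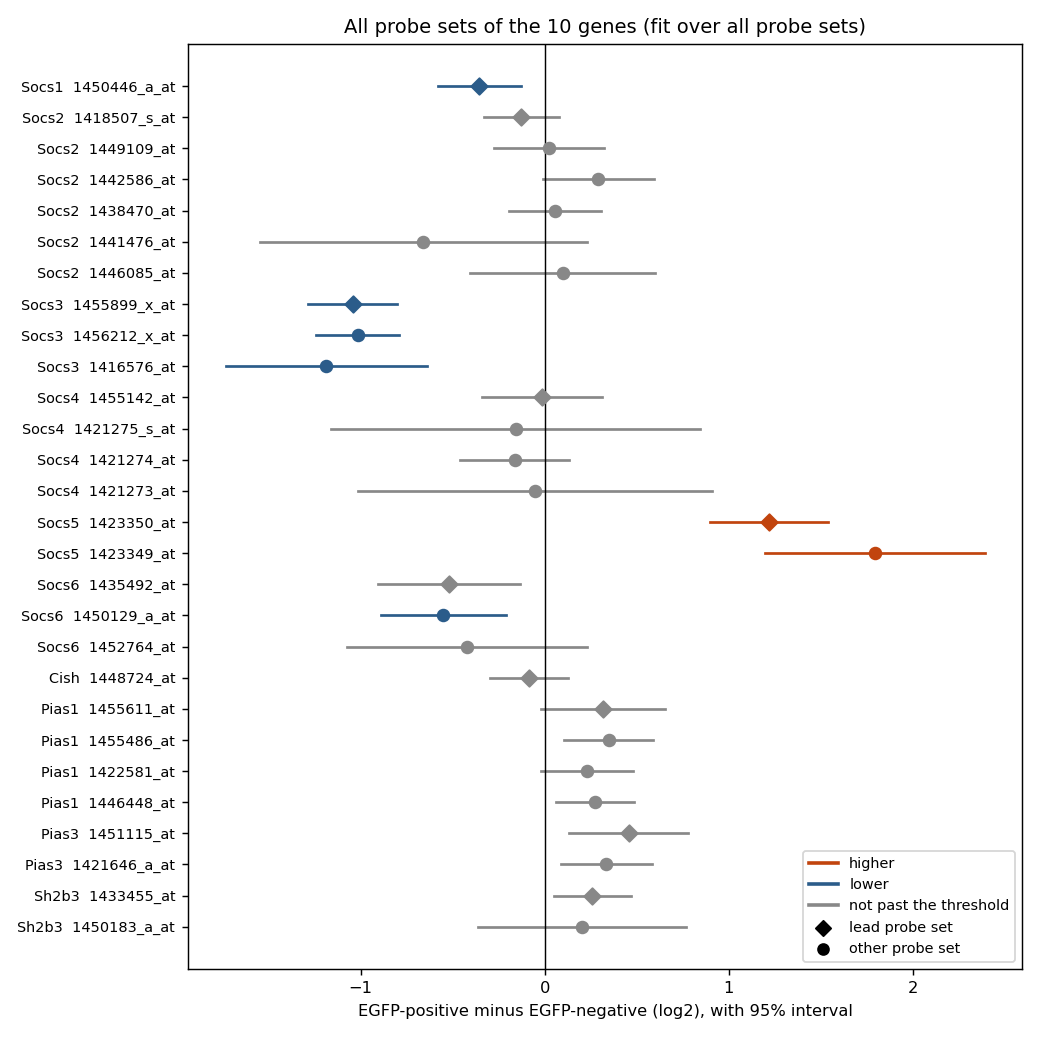
Difference between EGFP-positive and EGFP-negative arrays on the log2 scale (x axis) for each of the 28 probe sets (rows), with 95% intervals from the fit over all probe sets. All 3 probe sets of Socs3 lie left of 0 and both of Socs5 right of it, while the 6 of Socs2 and the 4 of Socs4 all have intervals that include 0.

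The rest of the pathway was read from 10 lists of receptors, kinases, STATs, partners and targets, with 74 of 82 genes measured. Of these, 20 were higher, 22 lower and 32 did not pass, with a median difference of -0.060. Over all genes, 16.0% were higher and 17.2% lower (33.2% in either direction), and the lists were chosen with earlier results of these data known. Among 5 further members of the SOCS, PIAS and SH2B families, 2 fell and 0 rose, with 1 fall when the probe sets were combined or chosen otherwise, or without EGFP-positive replicate 1 or 2 or EGFP-negative replicate 2 or 3. Sh2b2, an adaptor related to Sh2b3, read 5.001, 5.542 and 5.516 in EGFP-positive arrays, against 7.612, 7.290 and 7.421 in EGFP-negative arrays. It fell 4.25-fold (-2.09, SE 0.17; limma adjusted p = 0.00034), while Sh2b3 was 1.20-fold higher. With the mean or the median of its probe sets Sh2b2 differed by -1.15. Pias2 was -0.42 by its lead probe set (adjusted p = 0.025), but its most variable probe set and the median of its probe sets gave 0.30, and their mean gave -0.063 (adjusted p = 0.71). Its call was also lost without EGFP-positive replicate 1 or 2 and without EGFP-negative replicate 2 or 3, with adjusted p of 0.066 to 0.089.

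Receptors for the culture cytokines were mostly lower. Of 6 measured, 4 fell and 1 rose (median -0.90). The interleukin-11 receptor gene Il11ra1 was listed but not measured. Csf2rb, the beta chain shared by the receptors for interleukin-3, GM-CSF and interleukin-5, read 11.07, 11.14 and 11.03 in EGFP-positive arrays, against 12.59, 12.53 and 12.63 in EGFP-negative arrays (-1.50, limma adjusted p = 6.9e-05). Csf2rb2, the mouse beta chain for interleukin-3 alone, fell by 1.73 (adjusted p = 4.1e-05), and the 2 genes are close copies whose probe sets may share signal. Kit (-0.98) and Flt3 (-0.82), the receptors for stem cell factor and Flt3 ligand, also fell. The rise was that of Il3ra, the interleukin-3 binding chain (0.51, adjusted p = 0.0076), and gp130, encoded by Il6st, did not pass (-0.13, adjusted p = 0.43).

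Other cytokine receptors went both ways, with 4 of 15 higher and 5 lower (median -0.29). The erythropoietin receptor gene Epor rose by 1.71 and the interferon receptor gene Ifnar1 by 0.51. The interleukin-7 receptor gene Il7r fell by 3.43 and the M-CSF receptor gene Csf1r by 1.37. These 4 had adjusted p of 0.00012 to 0.0069. With the most variable probe set Ifnar1 differed by 0.81, and with the median of the probe sets Csf1r by -0.89. The 4 rises became 2 without EGFP-positive replicate 2 and without EGFP-negative replicate 1 or 2.

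Signal carriers rose or did not pass. Of 4 Janus kinase genes, 1 rose, Jak2 (0.37, limma adjusted p = 0.018), the kinase that interleukin-3 activates. Its call was lost without EGFP-negative replicate 1 (0.052), 2 (0.071) or 3 (0.053). The difference was 0.74 with the most variable probe set of Jak2 and 0.56 with the mean or median, and with the most variable probe sets 1 Janus kinase gene was lower. Of 6 STAT genes, 3 rose and 0 fell (median 0.41): Stat2, which acts in the response to type I interferon (1.59, adjusted p = 0.00018), Stat5a (0.44, 0.0081) and Stat3 (0.43, 0.0095). For Stat5a the median or mean of its probe sets gave 0.64 (adjusted p of 0.058 and 0.054), and the most variable gave 0.85 (0.18). Stat3 passed with 0.82 by its most variable probe set and 0.69 by the median.

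Partners of the brakes, in the lists of ubiquitin ligase and SUMO genes, were lower or did not pass by their lead probe sets. Of 6 genes of the ubiquitin ligase that the SOCS box recruits, or of its VHL-linked counterpart, 2 fell and 0 rose (median -0.19). These were Cul2, the cullin of the VHL-linked ligase (-0.48, limma adjusted p = 0.0081), and Elob, elongin B (-0.35, 0.032). Cul5, the cullin of the SOCS ligase, did not pass (0.43, limma adjusted p = 0.40). Its EGFP-positive replicate 3 stood apart at 10.07, with the other EGFP-positive arrays at 8.99 and 8.72. Elob did not pass without any 1 of the 6 arrays (0.0502 to 0.089) or with the most variable probe set (0.066), and Cul2 did not with the median of its probe sets (-0.26, adjusted p = 0.059). With eBayes trend or only brighter genes, 4 of the 6 were lower. Of 4 measured SUMO pathway genes 1 fell, Sae1, a subunit of the SUMO-activating enzyme (-0.89, adjusted p = 0.00099), whose call was lost (0.16) when its most variable probe set stood for the gene. In that setting, with eBayes trend and with only brighter genes, 1 SUMO pathway gene rose. Of 11 phosphatases and other signal regulators 4 rose and 4 fell. The 4 falls became 2 with the mean or the median of the probe sets and 1 with the most variable one. They became 2 without any 1 of the EGFP-positive arrays or without EGFP-negative replicate 3, and 1 without EGFP-negative replicate 1 or 2, while 3 or 4 genes rose in each of these settings. The phosphatase gene Ptpn6 (SHP-1) rose by 0.58 and the adaptor gene Dok1 by 0.53. The phosphatase gene Ptpn11 (SHP-2) fell by 0.55 (-0.85 with its most variable probe set or the median), and Ptpn1 by 0.32. The call of Ptpn1 was lost without EGFP-negative replicate 1 (adjusted p = 0.068), 2 (0.059) or 3 (0.067), and with its most variable probe set (0.083).

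Known targets of the STATs went both ways. Of 11 STAT5 targets other than Cish and Socs2, 4 rose and 4 fell (median -0.20). Bcl6, which STAT5 represses, read 11.54, 11.71 and 11.62 in EGFP-positive arrays, against 9.18, 9.29 and 9.45 in EGFP-negative arrays. It was 4.97-fold higher (limma adjusted p = 4.0e-05). The survival gene Mcl1 rose by 0.58, while Myc fell by 2.70 and Osm, oncostatin M, by 1.69. Pim1, a kinase gene that STAT5 induces, did not pass by its lead probe set (0.068, adjusted p = 0.57), but its most variable probe set passed (0.47, adjusted p = 0.043), and the mean or median of its probe sets gave 0.27.

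Of 6 STAT3 targets other than Socs3, 3 rose and 0 fell (median 0.21): Bcl3 (1.48), Cebpd (1.29) and Junb (0.29), with adjusted p of 9.4e-05, 0.00027 and 0.031. Socs3 itself was lower. Junb lost its call whichever array was left out (adjusted p = 0.0503 to 0.11), and with the most variable probe set (0.083).

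**Figure D3:**
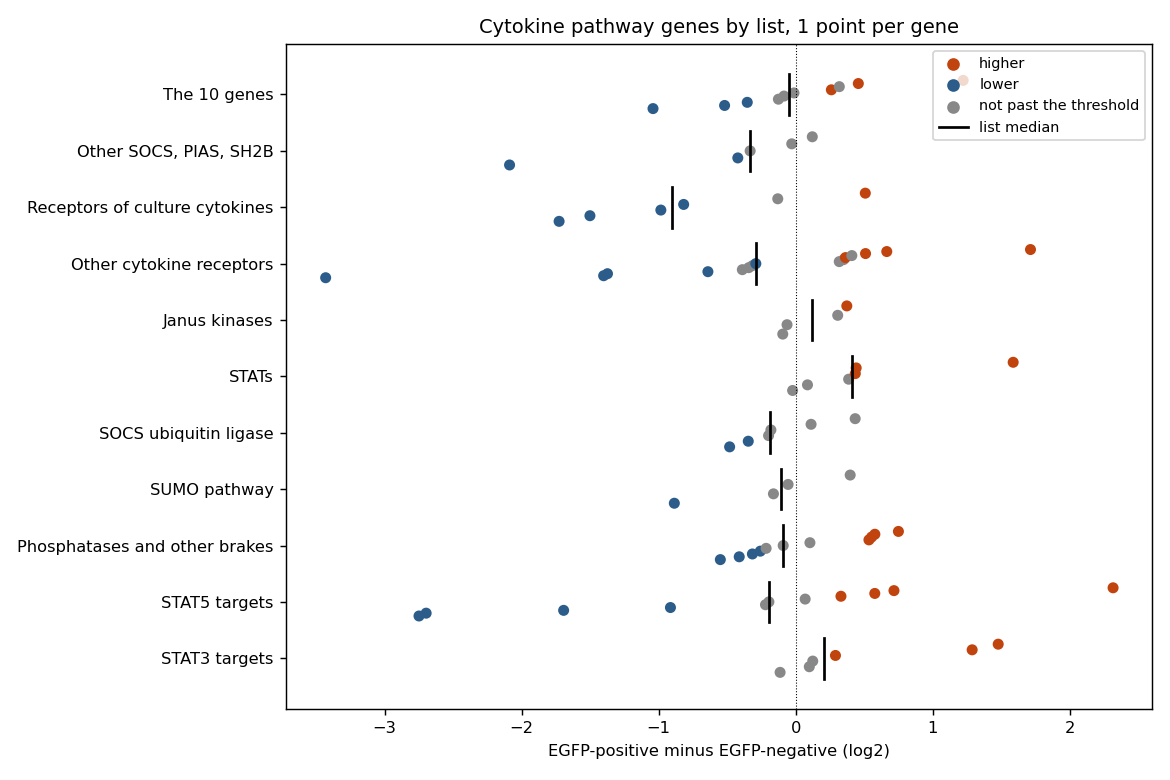
Difference between EGFP-positive and EGFP-negative arrays on the log2 scale (x axis) for the 10 genes and for 10 lists of pathway genes (rows), with 1 point per gene and a black bar at the list median. The receptors of the culture cytokines have a median of -0.90, and the 10 genes a median of -0.050.

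Socs5 had the largest difference of the 10 genes, so the genes with the pattern most like it were sought over the 6 arrays. After each gene's mean was subtracted, the smallest root mean square distances were those of Numbl (0.045), Ptpdc1 (0.068), Igsf3 (0.075), St14 (0.082) and Pkp3 (0.084), all on the log2 scale. Numbl read 7.457, 7.003 and 7.218 in EGFP-positive arrays, against 5.926, 6.053 and 5.856 in EGFP-negative arrays. These genes were picked for their values, so the likeness is a description.

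Markers of blood lineages also differed between the fractions, in which 16.0% of all genes were higher and 17.2% lower. All 8 neutrophil markers were lower, with a summed linear signal of 26962 to 27798 in EGFP-positive and 48889 to 51493 in EGFP-negative arrays. Such sums weigh the brightest genes most. Here these were S100a8 and S100a9, which fell by 0.30 and 0.39 log2, while the median of the neutrophil list was -3.23. Of 6 mast cell and basophil markers 5 were lower, with sums of 3084 to 3403 in EGFP-positive and 12549 to 12931 in EGFP-negative arrays. The brightest of these in both groups, the basophil gene Mcpt8, fell by 1.55 log2, while the list median was -1.85. Tpsb2, a dim gene, did not pass (-0.59, limma adjusted p = 0.054). Lower, too, were 5 of 6 monocyte markers, with sums of 4288 to 4364 in EGFP-positive and 5016 to 5137 in EGFP-negative arrays. The 1 that was higher, Cd68, was also the brightest of them and rose by 0.80 log2, while the list median was -1.89. Of 4 eosinophil markers 3 were lower (median -2.48), with sums of 204 to 325 in EGFP-positive and 1477 to 1674 in EGFP-negative arrays. Of 5 erythroid markers 4 were higher and 1 lower, with sums of 3839 to 3897 in EGFP-positive and 1269 to 1303 in EGFP-negative arrays. The 1 that was lower, Alas2, fell by 1.86 log2 (limma adjusted p = 9.0e-05). Gata1, the brightest of this list in both groups, rose by 1.38 log2. Of 4 megakaryocyte markers 2 were higher (sums of 2968 to 3002 against 1301 to 1364), and of 7 lymphoid markers 3 were lower (154 to 196 against 1119 to 1246), with Rag1 and Pax5 under the highest bacterial control in both groups.

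Among markers of the labelled cell type, Ptprc, the pan-leukocyte gene, read 10.84 in EGFP-positive and 10.74 in EGFP-negative arrays, and the progenitor factor gene Myb read 12.07 and 12.88. Of 7 progenitor markers measured 5 were lower, with a list median of -0.82. Cd34 fell by 2.75, Cd48 by 1.33, Kit by 0.98, and Flt3 and Myb by 0.82 each. The 1 that was higher, Slamf1, rose by 2.59. No progenitor marker lay under the highest bacterial control in both groups. The excess of 3′ over 5′ end signal, a sign of RNA quality or amplification, was 1.00 ± 0.032 in EGFP-positive and 0.80 ± 0.049 in EGFP-negative arrays for Actb (log2, SD, n = 3 each), and 1.06 ± 0.036 and 0.82 ± 0.019 for Gapdh. The part of the marker shifts and of the 3′ excess in the differences of the 10 genes was not tested.

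**Figure D4:**
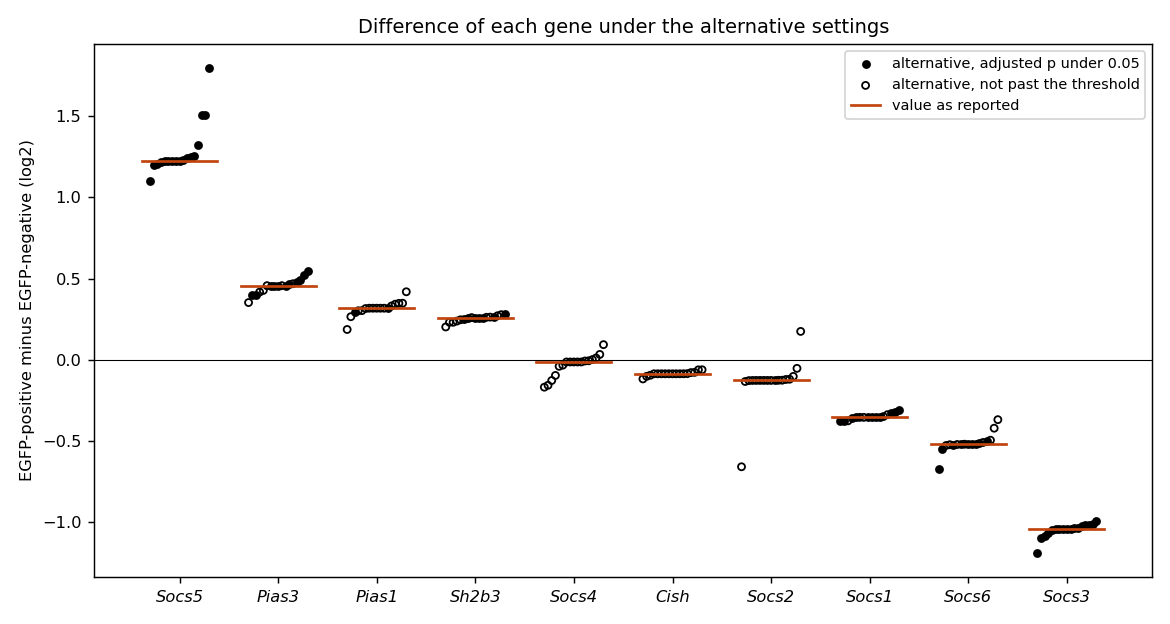
Difference between EGFP-positive and EGFP-negative arrays on the log2 scale (y axis) for each of the 10 genes (x axis), as reported (line) and under the alternative settings (points, filled where the adjusted p was under 0.05). Socs5 and Socs3 were past the threshold under all 17 alternatives, and Sh2b3 under 7 of 17.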

How the data were processed

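Per the labels' protocols, total RNA of 6 sorted samples was linearly amplified by a 3′ in vitro transcription kit with biotin, and each was hybridised to 1 Affymetrix array. The table deposited by the authors holds log2 values per probe set from RMA (background correction, quantile normalization, summary over probes), per the submitters' processing notes, which name no version. Arrays carry no read depth, and 3 per group limit the precision.

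Of 45101 probe sets, 64 were controls. GEO's platform annotation was updated by Entrez identifier to RefSeq symbols. A linear model was fitted (limma 3.58.1 under R 4.3.3; lmFit, then eBayes; no covariate, two-sided, Benjamini-Hochberg over 18192 genes or 45037 probe sets), as EGFP-positive minus EGFP-negative. The highest of 27 bacterial control probe sets (3.61) marked background. The script was tested on simulated data. Promoter sequences are RefSeq's, GRCm38.p6.

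The members, gene lists, naming rule (per list, the 2 called rises and the 2 called falls of smallest p, where present) and alternatives were chosen with earlier results of these data known. Kit, Flt3, Il6st, Stat3, Junb and Pim1 were named after their values were seen. Genes without a probe set annotated to them alone were not analysed here. A list of target genes is not reported here.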

Additional observations from a re-analysis of the deposited data

How the results depend on the processing

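Socs3 (-1.19 to -0.99) and Socs5 (1.10 to 1.79) kept their direction and stayed past the threshold under all 17 alternatives. The counts of 3 higher and 3 lower genes did not hold as well. Leaving out 1 array gave 1 to 2 higher and 1 to 3 lower genes, and the most variable probe set gave 1 higher. Of the 28 probe sets, 2 were higher as reported, against 5 with a further quantile normalization, 5 with the arrays shifted to the same median, 5 with eBayes trend, 7 with only brighter probe sets and 7 with those above the bacterial controls on at least 3 arrays; without 1 array 2 to 3 were higher and 3 to 5 lower. Same-numbered samples did not deviate together (r = 0.014, -0.016 and 0.0023), which does not settle whether the numbers pair them. With the replicate number as a block, 1 gene was higher and 1 lower, and 3 probe sets were lower. The calls over all genes were then 2361 higher and 2539 lower, against 2913 and 3132. Under the block Socs1, Socs6, Pias3, Sh2b3, Pias2, Jak2, Ptpn1, Elob and Junb lost their calls. Sign changes were confined to differences that were not past the threshold in that setting: Socs4 (0.011 with arrays shifted to the same median, 0.0012 with array weights, -0.13 to 0.093 when each array was left out, with 0.093 without EGFP-positive replicate 1 and 0.033 without EGFP-negative replicate 3), Socs2 (0.17 with the median of its probe sets), Pias2 (0.30 with its most variable probe set and with the median) and Il6st (0.043 with its most variable probe set). The causes were not tested. Socs1 has no value with only brighter genes, since it was not among them. Of 340 recomputed list counts, 299 stayed within 1.5 times.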
